A study of Mus musculus with 72 samples.

Results

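The lung libraries of the tm1a knockout study compare promoter CpG islands of knockout (KO) and wild-type (WT) mice and the LacZ reporter of the same knockouts. They were chosen by tissue from the sample titles and number 12 of the 72 libraries: 4 KO island libraries, 4 WT island libraries and 4 KO LacZ libraries, 1 of each kind for the lines Arap, Dstn, Ninj1 and Rgcc. KO mice carried the tm1a allele of the Knockout Mouse Project on both chromosomes (genotype -/-), which holds a LacZ reporter under the native promoter of the targeted gene and a neo selection cassette. WT mice had no such allele. All mice were 7 weeks old on a C57BL/6N background. Flash-frozen tissue gave genomic DNA, which was treated with bisulfite, amplified and sequenced, and in each knockout the same DNA served for the island and for LacZ. The labels do not say how many animals or litters a library holds, and they give no embryonic stem cell clone, so each lung library is 1 sample. The other tissues of the same 4 lines, 48 libraries in all, were used for comparison.

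Methylation of the cytosine in CpG dinucleotides is a repressive mark. Clusters of CpGs at gene starts, called CpG islands, are mostly kept free of it, and methylated promoter islands go with silent genes. Foreign coding sequences inserted into the mouse genome, bacterial LacZ among them, are rich in CpGs and are known to become methylated, often unevenly from cell to cell. Bisulfite turns unmethylated cytosine into uracil, which is read as thymine, while methylated cytosine is read as cytosine, so the level of a CpG is the percent of reads that kept the cytosine. In whole lung, a mixture of many cell types, more methylated cells and more methylated molecules per cell cannot be told apart. The assay held no lung marker, so the tissue label was not checked. The LacZ libraries exist for knockouts and gave reads over the reporter in all 4 lines, but the island reads themselves carry no check of genotype.

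Depth was high. The 4 KO island libraries held 308849 to 3821466 CpG calls with a median coverage per CpG of 4250 to 51755.5, and the 4 WT island libraries held 438445 to 4343898 calls with a median of 5133.5 to 138167. The 4 LacZ libraries held 1698309 to 3898035 calls. Counting error on a library's pooled level was at most 0.0976 percentage points to either side (95% Wilson interval), which covers counting alone, since PCR copies that carry no molecular identifier can come from 1 molecule. The 3 Rgcc WT libraries, those of lung, heart and muscle, carry in their labels the mapping accession that belongs to another line of the study, although their positions are those of the Rgcc island on chromosome 14. They were grouped by title, every Rgcc comparison rests on them, and results over lines are also given without Rgcc. In the Dstn knockout the LacZ library of lung stood apart from that line's other tissues, and the reporter results are given with and without it.

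The 4 islands are those of the targeted genes, and all but that of Ninj1 could be placed at a gene start. Arap1, the gene matched to the Arap line, encodes a GTPase-activating protein for Arf GTPases. Dstn encodes destrin, a protein that severs and depolymerizes actin filaments. Ninj1 encodes ninjurin 1, a membrane protein known for cell adhesion and for plasma membrane rupture in dying cells. Rgcc encodes a regulator of the cell cycle that responds to complement. The CpG spacing of the amplicons was matched to RefSeq promoter sequences of build GRCm38.p6, and all 21 CpGs of the Arap1 sequence that lie within the amplicon, 31 of 31 in Dstn and 26 of 26 in Rgcc were found. The Ninj1 sequence overlapped its amplicon at 8 of 37 CpGs, too few to place it, and Ninj1 CpGs are given by their listed positions alone. Distances below are counted from 0 at the first base of the RefSeq gene, negative upstream, and outside the printed sequences they assume no insertion or deletion between builds.

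In the edgeR test described below, Dstn had 10 calls among 78 CpGs and Rgcc 24 among 67, against 35 among all 231. Their promoter sequences are therefore shown, although the limma test, also described below, called 0 in either island. In the Dstn sequence, chr2:143915081-143915380 on the plus strand, capitals mark the 7 CpGs called higher in KO lung. In the Rgcc sequence, chr14:79301586-79301885 on the minus strand, capitals mark the 26 CpGs measured, none of which was called, since the called CpGs of that island all lay further into the gene.
Dstn: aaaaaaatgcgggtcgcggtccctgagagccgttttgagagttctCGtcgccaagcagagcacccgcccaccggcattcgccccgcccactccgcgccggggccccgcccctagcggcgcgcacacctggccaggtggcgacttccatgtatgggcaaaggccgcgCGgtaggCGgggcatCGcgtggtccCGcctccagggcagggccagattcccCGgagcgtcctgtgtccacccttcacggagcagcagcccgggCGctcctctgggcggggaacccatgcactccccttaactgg
Rgcc: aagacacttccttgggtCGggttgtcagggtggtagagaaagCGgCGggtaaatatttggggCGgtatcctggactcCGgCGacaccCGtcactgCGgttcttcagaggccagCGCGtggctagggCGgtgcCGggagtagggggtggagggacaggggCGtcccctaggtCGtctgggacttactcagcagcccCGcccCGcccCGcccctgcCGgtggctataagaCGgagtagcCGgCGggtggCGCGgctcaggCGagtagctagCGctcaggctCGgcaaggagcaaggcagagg

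The first question was whether the islands of the targeted genes are more methylated in KO than in WT lung. Over CpGs with at least 10 reads, all 4 islands had a slightly higher mean level in KO lung. In Arap, Dstn and Ninj1 the KO island stayed far below the LacZ level of the same lung. In Rgcc it was close to LacZ, which had 9.96%, or 4.90% without CpGs that hardly varied between libraries (described below). The Rgcc island averaged 7.90% in KO and 6.49% in WT lung over 67 CpGs, a difference of 1.41 percentage points. The Dstn island averaged 4.49% in KO and 3.89% in WT lung over 78 CpGs, a difference of 0.601 points. In the Arap island the level was 0.815% in KO and 0.544% in WT lung over 32 CpGs, a difference of 0.271 points. The Ninj1 island averaged 10.1% in KO and 9.98% in WT lung over 64 CpGs, a difference of 0.0838 points. Without a minimum coverage the Ninj1 difference was −0.375 points, and at the median CpG that of Dstn was 0.0700 points. The mean difference over the 4 lines was 0.591 ± 0.585 points (SD, n = 4 lines), positive in 4 of 4 lines, with a two-sided exact sign-flip permutation p of 0.13, the smallest that 4 lines can give. Without Rgcc it was 0.319 ± 0.262 points (3 of 3 lines positive, exact p = 0.25). Each level comes from 1 library, so no island difference of a single line has a replicate check within lung.

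A minority of CpGs carried most of the methylation in these means. Of the Dstn CpGs, 8 averaged at least 5% in lung and held 85.9% of the summed KO level, and in Ninj1 16 CpGs held 92.9%. In Rgcc 9 such CpGs held 74.3%, and Arap had none. Most of these CpGs were methylated in both genotypes and in the other tissues too. In Dstn the level of the CpG at +329 was 99.9% in KO and 99.8% in WT lung, with 99.2 to 99.8% in the 10 other Dstn island libraries. In Rgcc the CpG at −22 had 90.8% in KO and 88.6% in WT lung, against 90.7 to 96.3% in the other 4 Rgcc libraries. Some of these CpGs lay at or near an end of the covered span, that at +329 in Dstn among them. The Rgcc CpG at +574 had 53.0% in KO and 49.7% in WT lung, against 49.9 to 53.5% in the other libraries. Ninj1 49282901 had 70.4% in KO and 70.5% in WT lung, against 69.0 to 71.2%. The part of amplicon ends in these levels was not tested. The KO lung level lay within the range of the line's other island libraries, KO and WT, at 6 of the 8 Dstn CpGs, 12 of the 16 Ninj1 CpGs and 7 of the 9 Rgcc CpGs.

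Away from these CpGs the islands were close to unmethylated in WT lung and were higher in KO lung in each line. Over the remaining 58 Rgcc CpGs the level was 2.34% in KO and 0.662% in WT lung. Over 48 Ninj1 CpGs it was 0.956% in KO and 0.376% in WT lung, and over 70 Dstn CpGs it was 0.707% in KO and 0.375% in WT lung. Some of the 48 Ninj1 CpGs were not covered in every Ninj1 library, and KO levels among the 48 reached 9.36%. Coverage in that island fell to 12 reads in KO and 10 in WT lung. The part of CpGs with few reads in the Ninj1 difference was not tested. Bisulfite conversion of each library was not measured here, and a cytosine left unconverted counts as methylated. The part of conversion in these low levels and in their KO minus WT differences was not tested. Leaving out the methylated CpGs thus moved the difference to 1.68 points in Rgcc, 0.579 points in Ninj1 and 0.332 points in Dstn, and the mean over the 4 lines to 0.716 points (4 of 4 positive, exact p = 0.13). Counted over all CpGs with at least 10 reads in both lung libraries, KO was above WT by any amount at 183 of 241 (75.9%).

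**Figure D1:**
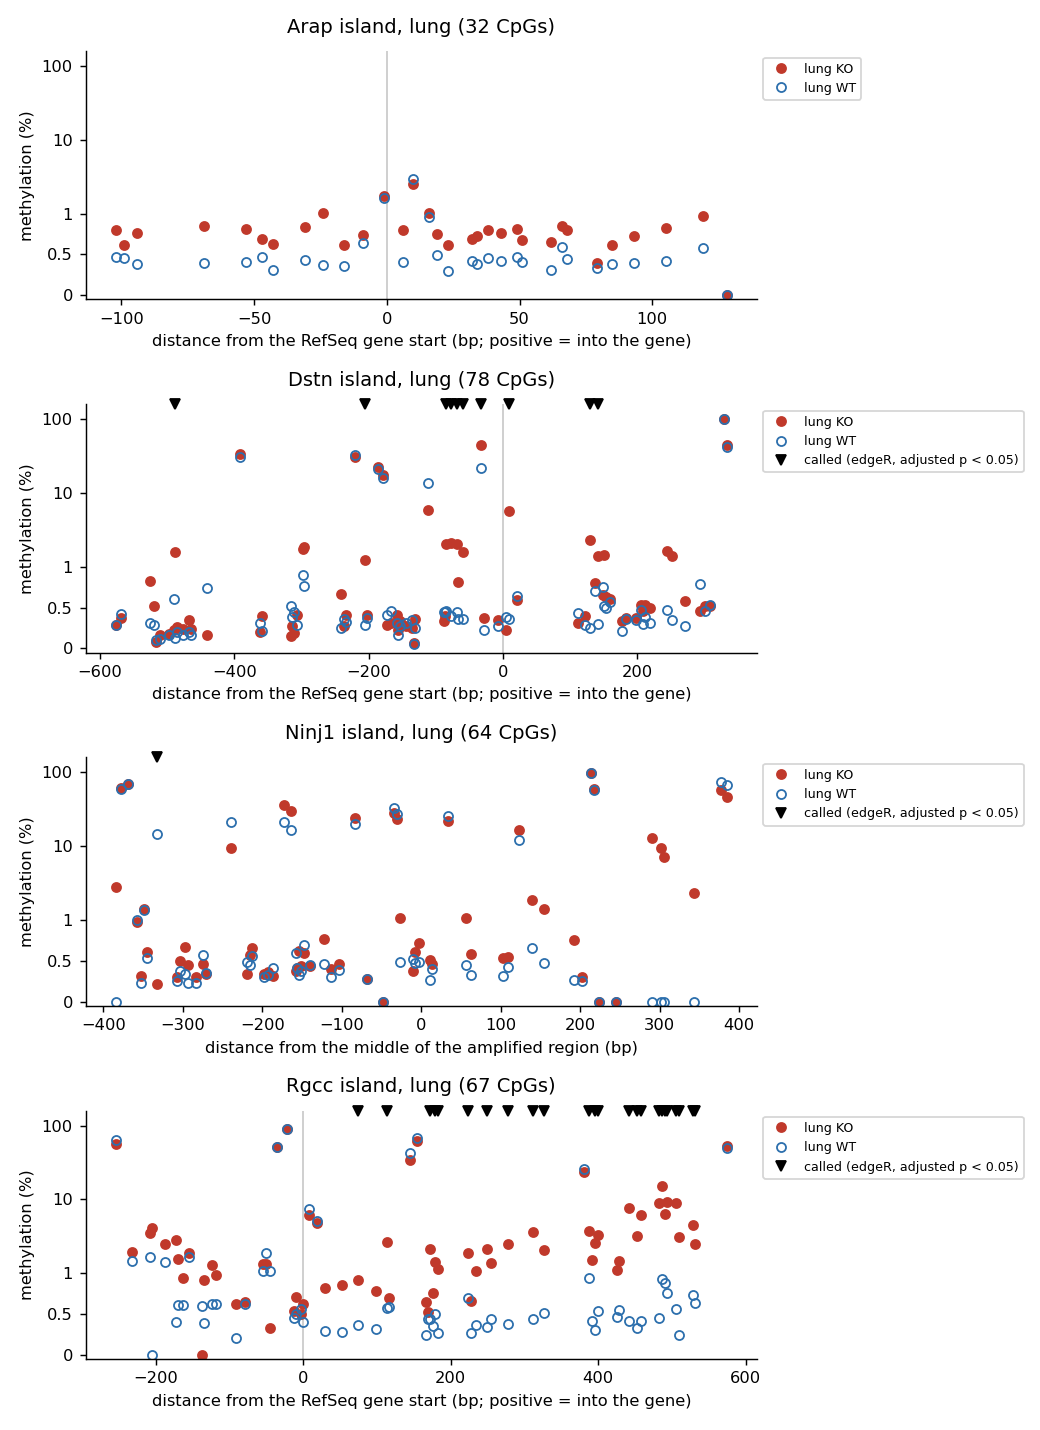
Methylation of each CpG in the 4 islands in lung, with KO as filled and WT as open circles, against distance from the gene start in bp (for Ninj1, from the middle of the amplified region). The vertical axis is linear up to 1% and logarithmic above, and triangles mark CpGs that differed between KO and WT lung by edgeR at an adjusted p under 0.05. The 10 called Dstn CpGs lie on both sides of the start, while the 24 called Rgcc CpGs all lie from +74 to +531.

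Single CpGs were tested with edgeR's quasi-likelihood model on methylated and unmethylated counts. Because lung has 1 library per genotype, the spread came from the line's other tissues, and the lung pair was assumed to vary as they do. Of 231 CpGs covered in every island library of their line, 34 were higher in KO lung (14.7%) and 1 was lower (0.433%) at a Benjamini-Hochberg adjusted p below 0.05. Rgcc gave 24 of 67 (35.8%), all higher, and Dstn gave 10 of 78 (12.8%), all higher. Ninj1 gave 1 of 55 (1.82%), which was lower. In Arap edgeR called 0 of 31, with 0 at an unadjusted p under 0.05, and the limma test likewise gave 0 and 0. The limma test on logit methylation called 1 of the 231, the Ninj1 CpG, so the Dstn and Rgcc calls rest on the count model; all 10 Dstn and 20 of the 24 Rgcc CpGs had an unadjusted limma p under 0.05. Rgcc could be fitted only with both heart and muscle beside lung, which left 1 residual degree of freedom per CpG. Its small edgeR p-values therefore rest on a spread shared across the CpGs of 1 amplicon, which are not replicates. With the other tissues left out in turn, 9 CpGs (without muscle, 164 tested) to 39 CpGs (without brain) were called, and 12 without heart (164 tested).

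In the Rgcc island the called CpGs formed a run within the gene. They lay from +74 to +531, with 0.910 to 14.97% in KO lung against 0.242 to 0.943% in WT lung, so no KO value among them was below 0.9% and no WT value reached 1%. The largest difference was at chromosome 14 position 79700954 (mm9), +486 from the start, with 14.97% in KO and 0.925% in WT lung (8498 and 12108 reads). Its log2 odds ratio was 4.23 ± 0.484 (SE) with an edgeR adjusted p of 9.48e-11, and limma gave an adjusted p of 0.0551. The CpG next to it at +483 had 8.96% in KO and 0.454% in WT lung, that at +493 had 9.21% in KO and 0.759% in WT lung, and that at +505 had 8.96% in KO and 0.564% in WT lung. All 3 were called (edgeR adjusted p of 9.48e-11, 3.55e-09 and 2.72e-07). These CpGs were about as high in the knockouts' other tissues. At +486 the KO minus WT difference was 14.0 points in lung and 11.8 and 13.9 points in the other 2 tissues, where KO levels were 12.6 and 15.3% and WT levels 0.794 and 1.41%. Among the 24 called CpGs, 23 had a positive difference in both other tissues, and lung exceeded both at 8 and was below both at 3. Over all 67 tested Rgcc CpGs, lung exceeded both at 17 (25.4%) and was below both at 22. KO was above WT at 59 of the 67 in heart and 52 in muscle. Since the lung contrast itself chose the 24, their counts are a description.

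Upstream of the Rgcc start the lung pair differed less. Leaving out the CpGs averaging at least 5%, 21 upstream CpGs had 1.38% in KO and 0.793% in WT lung, a difference of 0.585 points, against 2.51 points as the mean of heart and muscle. The 37 downstream CpGs had 2.89% in KO and 0.588% in WT lung, a difference of 2.30 points, against 2.23 points in heart and muscle. Coverage differed along with this contrast: the upstream CpGs had a median of 320 reads in KO and 493 in WT lung and the downstream ones 6153 in KO and 7801 in WT lung. The part of coverage in the contrast between upstream and downstream was not tested. The lowest difference of the island was also in the gene, at 79701295 (+145), with 33.7% in KO and 42.5% in WT lung, a difference of −8.86 points that was not called (edgeR adjusted p = 0.688). In heart and muscle that CpG differed by 2.11 to 3.55 points.

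In the Dstn island the called CpGs were sparse and low in level, apart from 1. They lay from −488 to +142, with 7 upstream and 3 downstream of the start. At 9 of the 10 the mean of KO and WT lung was below 5%, and there the difference was 0.952 to 5.40 points. The largest of these was at chromosome 2 position 143741075 (mm9), +9 from the start, with 5.75% in KO lung against 0.359% in WT lung (14980 and 22299 reads). Its log2 odds ratio was 4.08 ± 0.881 (SE) with an edgeR adjusted p of 0.00408 and a limma adjusted p of 0.0526. In the 5 other tissues of the line the same CpG had 0.307 to 1.18% in KO and 0.366 to 0.580% in WT. Lung KO thus stood above all other Dstn island libraries at this CpG.

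The CpGs on either side of that at +9, at +5 and +21, were not called. Lung KO also stood above all other Dstn island libraries at called CpGs further away. At +130 (143741196) the level was 2.29% in KO and 0.252% in WT lung (edgeR adjusted p = 0.00673), with KO minus WT of −0.792 to 0.257 points in the other tissues. At −77 (143740989) it was 2.11% in KO and 0.397% in WT lung (adjusted p = 0.00184), with −0.260 to 0.246 points elsewhere. At −84 (143740982) it was 2.06% in KO and 0.455% in WT lung (adjusted p = 0.00181), with −0.102 to 0.280 points elsewhere. At all 10 called Dstn CpGs the lung difference exceeded that of every other tissue, which over all 78 tested CpGs was the case at 25 (32.1%). Since the lung contrast itself chose the 10, that count is a description.

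The exception in level was the CpG at −33 (143741033), which was methylated in both genotypes. It had 44.9% in KO and 21.7% in WT lung, a difference of 23.2 points (edgeR adjusted p = 0.0458, limma 0.158). In the other tissues it had 28.7 to 45.7% in KO and 21.2 to 31.9% in WT, with differences of −2.01 to 13.9 points. The KO lung level was therefore within the KO range of other tissues. The lowest difference of the island was at −112 (143740954), with 5.80% in KO and 13.6% in WT lung, −7.78 points, which did not pass the threshold (edgeR adjusted p = 0.0708).

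The Ninj1 island gave the single CpG that was lower in KO lung, at chromosome 13 position 49282938 (mm9), with 0.212% in KO and 14.8% in WT lung (43016 and 14491 reads). The edgeR adjusted p was 1.34e-05 and the limma adjusted p 0.000204. This CpG had the same split in the 5 other tissues, with 0.267 to 0.487% in KO and 14.6 to 17.3% in WT, so KO and WT libraries did not overlap in any tissue measured. The largest difference of the island was at 49283097, with 36.4% in KO and 21.1% in WT lung, which was not called (edgeR adjusted p = 0.296). The lowest, at 49283654, had 46.9% in KO and 66.7% in WT lung from 81 and 18 reads and was not tested, as it lacked coverage in other tissues. In the Arap island the differences ran from −0.429 points at 108496592 on chromosome 7 (+10; 2.50% in KO and 2.93% in WT lung) to 0.632 points at 108496558 (−24; 1.0% in KO and 0.371% in WT lung). KO was above WT at 30 of the 32 Arap CpGs by small amounts, none of which was called.

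A second question was whether the KO minus WT difference in lung differed from that in the same line's other tissues. The direction over the 4 lines depended on the scale. Lung minus the mean of the other tissues averaged −0.188 ± 0.576 points (SD, n = 4 lines; positive in 2 of 4; two-sided exact sign-flip permutation p = 0.75), and 0.0487 points without Rgcc. It was 0.300 points with pooled reads (positive in 3 of 4 lines, exact p = 0.25) and 0.0888 on the log2 odds scale (positive in 4 of 4, exact p = 0.13). In Dstn, lung had the largest difference of 6 tissues, 0.601 points against 0.169 ± 0.065 points (SD, n = 5 tissues, range 0.0775 to 0.224), but with the median over CpGs its 0.0700 points lay just under the highest of the others, 0.0709 points. In Rgcc, lung had the smallest mean difference of 3, with 1.41 points against 2.15 points in muscle and 2.47 points in heart. That place was lost to muscle with pooled reads (2.08 points in lung against 1.84 in muscle), the median over CpGs (1.38 against 1.34 points) and log2 odds (0.99 against 0.91). In Ninj1 the lung difference of 0.0838 points lay within a range of −0.0310 to 0.934 points in the other 5 tissues, whereas with pooled reads its 0.0225 points lay above all 5 (−0.927 to −0.497 points). In Arap the difference of 0.271 points lay within −0.836 to 0.688 points in the other 4. The lowest Arap value was that of liver, where KO was at 2.24% and WT at 3.08%, with WT at most 0.633% in the rest. Without liver the other Arap tissues ran from 0.226 to 0.688 points, and lung was still inside.

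**Figure D2:**
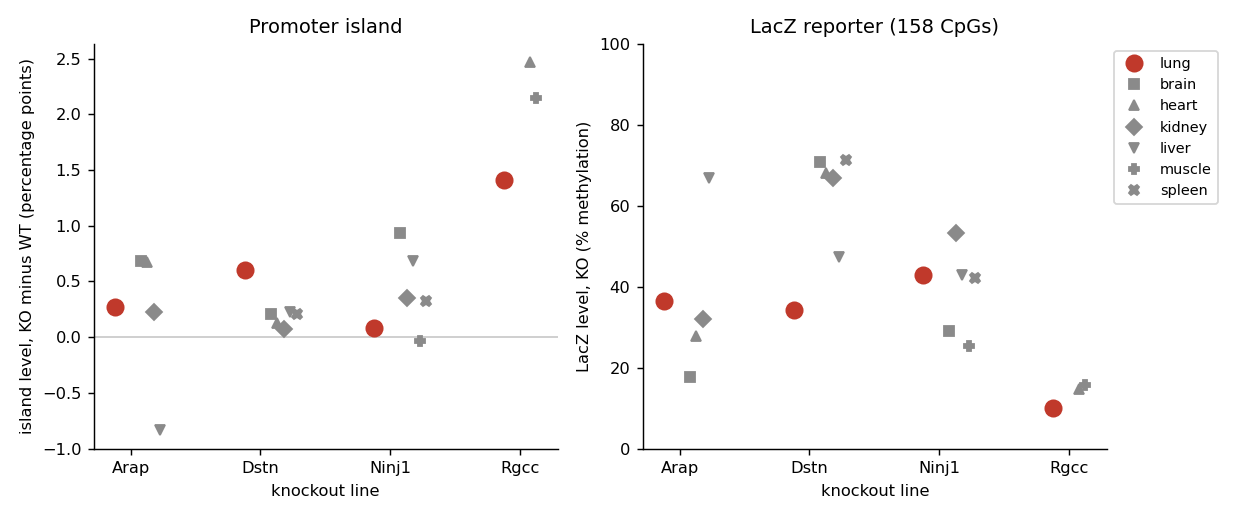
Left, mean island level of KO minus WT in percentage points, and right, mean LacZ level in percent methylation, for each knockout line, with lung as large circles and each other tissue as a grey symbol (1 library, or 1 pair, per point). Lung is above the other tissues of Dstn on the left and below them on the right, and below the other tissues of Rgcc in both.

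At single CpGs, the term for a lung difference unlike that of the other tissues passed the edgeR threshold at 5 of 231 CpGs (2.16%), all with a larger difference in lung, 4 of 78 in Dstn (5.13%; 143740982, 143740989, 143741007 and 143741075) and 1 of 67 in Rgcc (1.49%; 79700999), each at an adjusted p of 0.0473. The Dstn CpGs lay from −84 to +9. At +9 the lung difference of 5.40 points stood against a mean of 0.0554 ± 0.425 points (SD, n = 5 tissues), and at −77 that of 1.72 points stood against 0.0623 ± 0.191 points. The Rgcc CpG, at +441, had 7.60% in KO and 0.412% in WT lung, against 2.29 and 7.26% in KO and 0.876 and 0.929% in WT of the other 2 tissues. These calls lay just under the threshold and varied with the fit. The limma test called 0 of 231 with 16 at an unadjusted p under 0.05, against 15 in edgeR. Without spleen edgeR called 0, without liver 1, without kidney 2, without brain 8 and without heart 9.

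**Figure D3:**
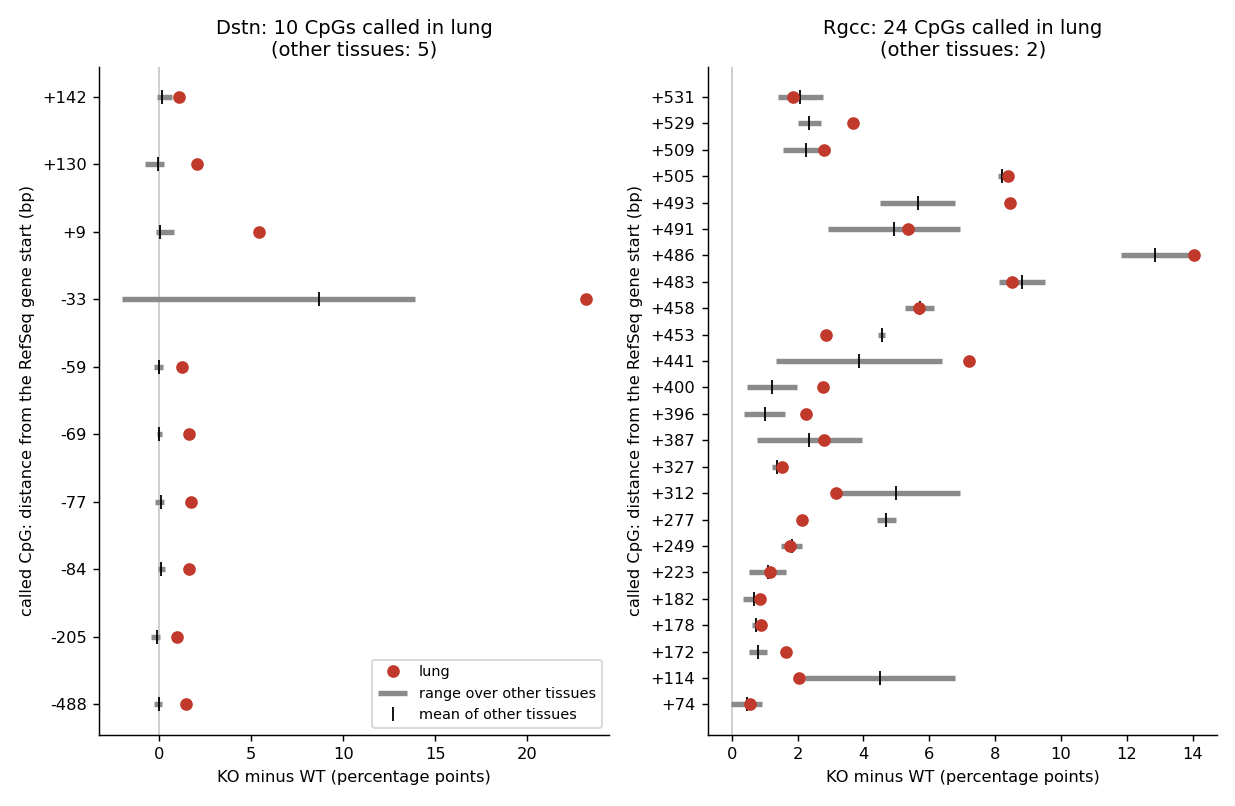
KO minus WT in percentage points at each CpG called in lung, in Dstn (left) and Rgcc (right), ordered by distance from the gene start in bp, with lung as circles, the other tissues' range as grey bars and their mean as black ticks. In Dstn the lung circle lies right of every bar, and the bars lie around 0 except at −33; in Rgcc most circles lie on or near the bar.

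The reporter was methylated at very different levels in lung depending on the line. Over the 158 LacZ CpGs covered in all 20 LacZ libraries of the 4 lines, the level in KO lung was 42.9% in Ninj1, 36.6% in Arap, 34.3% in Dstn and 9.96% in Rgcc. Each is 1 library, so neighbours in this order cannot be told apart by replicates. Without 17 CpGs that hardly varied between libraries (described below), the levels were 41.8% in Ninj1, 35.0% in Arap, 32.1% in Dstn and 4.90% in Rgcc. At the other 141 CpGs the Rgcc lung library was the lowest of the 4 at 138, while the highest was Ninj1 at 67, Dstn at 42 and Arap at 32.

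Against the other tissues of the same line, lung LacZ was lower in Dstn and Rgcc and not in Arap and Ninj1. In Dstn it was 34.3%, the lowest of 6 tissues, against 64.9 ± 9.95% (SD, n = 5 tissues, range 47.5 to 71.5%). In Rgcc it was 9.96%, the lowest of 3, against 14.8% in heart and 15.7% in muscle. In Ninj1 lung had 42.9% against 38.7 ± 11.3% (n = 5 tissues), and in Arap 36.6% against 36.1 ± 21.4% (n = 4 tissues), both inside the range. The mean over lines was −7.80 ± 15.7 points (SD, n = 4; 2 of 4 lines positive; two-sided exact sign-flip permutation p = 0.5). Without Dstn it was −0.186 points, so the mean rested on that line. With a term for the line, edgeR called 0 of 158 CpGs between lung and the other tissues (0% called), with 0 at an unadjusted p under 0.05 in edgeR and in limma.

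Along the reporter the covered CpGs fell into 7 stretches, numbered from the start of LacZ, whose borders were set after the levels were seen. The first CpG covered was at base 150 of the LacZ reference and the last at base 2896. The 17 near-constant CpGs had an SD under 7 points over the 20 libraries. All lay within 2 CpGs of an end of a stretch, as did 25 of the other 141. Borders fell at gaps of at least 100 bp, or of at least 30 bp between 2 neighbouring near-constant CpGs. These CpGs thus partly set the ends, and the counts are a description. At base 722 all 4 lung libraries had 73.7 to 79.2%, and at base 2433 they had 69.7 to 73.1%, the Rgcc library among them. At base 156 all 4 had 0%, on 18 to 82 reads, which allows a level of up to 3.66% in Ninj1, 6.52% in Dstn, 8.11% in Arap and 16.7% in Rgcc. That CpG was the lowest in each lung library, tied with 5 others in Rgcc. The highest were base 956 in Ninj1 (89.8%), base 424 in Dstn (81.0%), base 722 in Arap (77.5%) and base 1633 in Rgcc (87.0% of 23 reads). The Rgcc lung mean was 9.96% with the near-constant CpGs and 4.90% without them.

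**Figure D4:**
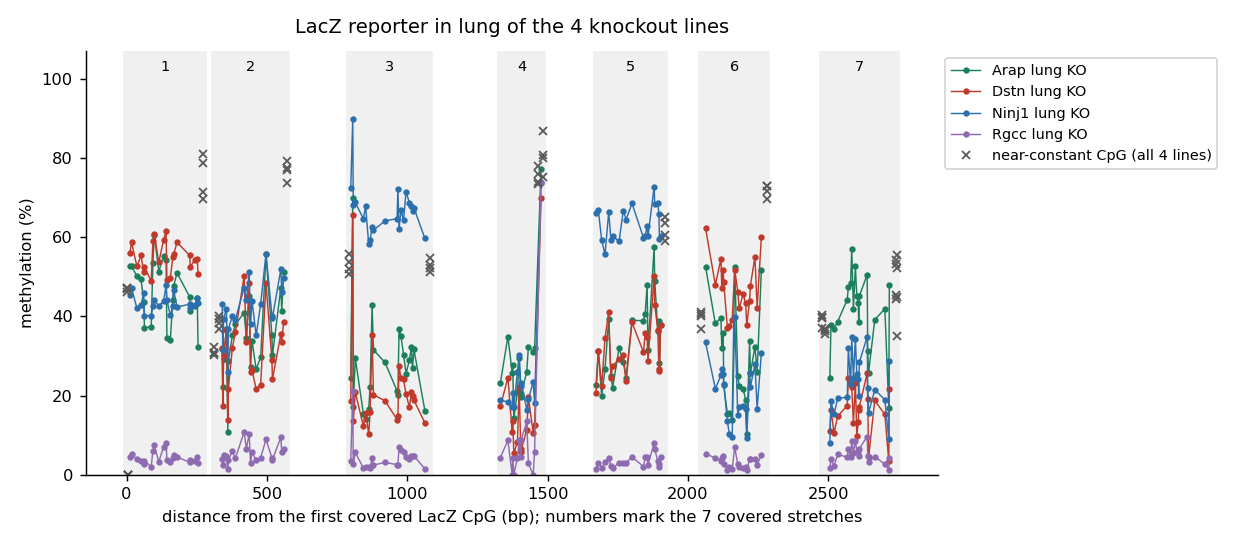
Percent methylation of LacZ CpGs in lung of the 4 knockout lines against distance in bp from the first covered CpG, with grey bands for the 7 covered stretches and crosses for the 17 near-constant CpGs in all 4 lines. The Rgcc line stays near the bottom in all stretches except at the crosses and at 1 CpG each in stretches 3 and 4, and Ninj1 is the highest in stretches 3 and 5.

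The order of the lines changed from stretch to stretch. In stretch 3 (bases 943 to 1232) the lung level, without near-constant CpGs, was 66.8% in Ninj1, 28.1% in Arap, 21.0% in Dstn and 4.49% in Rgcc. In stretch 6 (bases 2198 to 2433) it was 47.1% in Dstn, 29.3% in Arap, 21.4% in Ninj1 and 3.26% in Rgcc. The first part of the covered span (bases 150 to 1065) minus the last (bases 1981 to 2896) was 14.9 points in Ninj1 (47.5% first, 32.5% last), 5.98 points in Dstn, 1.56 points in Arap and −0.203 points in Rgcc. The mean of 5.56 ± 6.75 points (SD, n = 4; 3 of 4 lines positive) had a two-sided exact sign-flip permutation p of 0.25. Without near-constant CpGs it was 6.86 points, positive in 4 of 4 lines (exact p = 0.13).

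The low level of Dstn lung was uneven along LacZ. In stretch 5 (bases 1823 to 2068) lung had 32.1%, against 95.7 ± 2.25% in the 5 other tissues (range 92.8 to 98.1%). In stretch 3 it had 21.0%, against 43.8% in liver and 94.0 to 96.7% in brain, heart, kidney and spleen. In stretch 1 (bases 150 to 424) lung had 54.8% against 65.4 to 95.3%. By stretch 6 lung, at 47.1%, was above liver at 34.6%, and in stretch 7 (bases 2629 to 2896) its 16.3% lay inside the range of 15.1 to 20.1%. Lung was below every other Dstn tissue at 108 of 158 CpGs (68.4%), against 256 of 632 (40.5%) over the 4 lines, where the number of other tissues ranges from 2 to 5. In a fit of each line by itself, chosen after the levels were seen, edgeR called 1 of the 158 Dstn CpGs (0.633%), at base 2047, with 26.6% in lung against 96.2 ± 1.15% (SD, n = 5 tissues; adjusted p = 0.0498). That number varied with the tissues in the fit: without liver, the next lowest tissue, 96 were called, and without brain, heart, kidney or spleen 0.

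Ninj1 lung had the opposite pattern in part of the same stretches. In stretch 3 it had 66.8%, the highest of 6 tissues, against 36.9 ± 15.2% (SD, n = 5 tissues, range 18.9 to 52.4%), and in stretch 5 it had 63.4% against 33.5 ± 14.9% (range 19.9 to 51.9%). In stretch 6 it was the lowest, with 21.4% against a range of 21.9 to 52.0%. Lung was above all 5 other Ninj1 tissues at 39 of 158 CpGs and below all 5 at 17. Over the 4 lines lung was above all others at 49 of 632 and below at 256. Without near-constant CpGs, Ninj1 lung was above all 5 at 19 of 22 CpGs of stretch 3 and 17 of 21 of stretch 5. These stretches are given because lung was highest there, so their counts are a description. Within the line edgeR called 0 of 158, with 9 at an unadjusted p under 0.05, and limma called 0, with 11. Rgcc lung was the lowest of its 3 tissues in all 7 stretches, with 3.26 to 9.995% in lung against 6.29 to 24.5% in the other 2. The highest lung value was that of stretch 4, where the lowest coverage was 23 reads. Arap lung was inside the range of its other 4 tissues in every stretch.

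**Figure D5:**
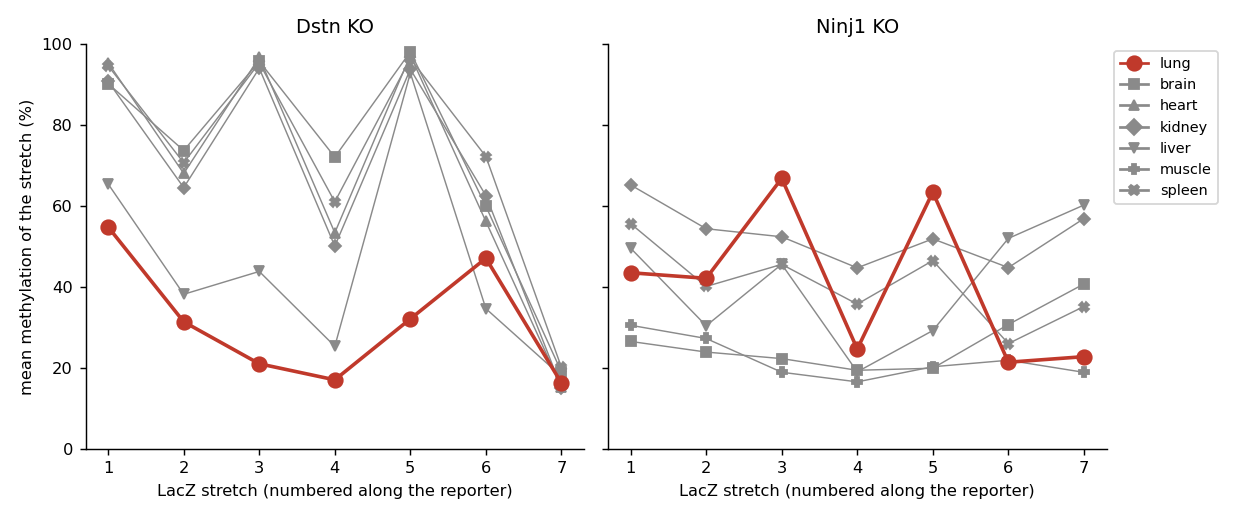
Mean percent methylation of each of the 7 LacZ stretches, without near-constant CpGs, in the Dstn and Ninj1 knockouts, with lung in red and each other tissue in grey (1 library per line). Dstn lung is the lowest in stretches 1 to 5, and Ninj1 lung is the highest in stretches 3 and 5 and the lowest in stretch 6.

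Island and reporter of the same knockout lung DNA can be set side by side. Dstn lung had the largest mean island difference of its tissues, 0.601 points, and the lowest reporter level, 34.3%. With the median over CpGs, the island difference of Dstn lung was 0.0700 points, just under the 0.0709 points of brain. Rgcc lung had a mean island difference of 1.41 points, whose place among its tissues changed with the measure, and the lowest reporter level, 9.96%. Over lines, Rgcc had the largest island difference in lung and the lowest reporter level. With 4 lines no correlation between island and reporter was computed.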

How the data were processed

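Per the series design text, CpG island and LacZ amplicons of bisulfite-treated DNA were aligned separately. The submitters' processing notes name Bowtie2, Bismark and build mm9; versions are not given in the sources used here. The deposited files list per CpG the authors' percent methylation and unnormalized counts of methylated and unmethylated calls. No duplicate removal is described.

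Rows over 2000 bp from an island's median position (43 in lung, at most 0.0343% of a library's calls) were left out. CpGs needed 10 reads. A level is the unweighted mean percent over CpGs covered in both libraries of a pair, or in all 20 LacZ libraries. Counts per CpG were tested with edgeR 4.0.16 (quasi-likelihood; library, tissue, genotype and lung-by-genotype terms; Benjamini-Hochberg over 231 CpGs; threshold 0.05), with limma 3.58.1 on logit methylation (offset 0.5 calls) as alternative, in R 4.3.3. Line means were tested by exact sign flips in Python 3.11.15. On simulated data the lung contrast recovered 91% of CpGs changed by an odds ratio of 16 in Arap, 30.4% in Dstn, 60.6% in Ninj1 and 87.7% in Rgcc. With an odds ratio of 4, the share was 15% in Arap, 0.769% in Dstn, 23.3% in Ninj1 and 20% in Rgcc. No line passed 2% when the odds ratio was 2, so in these simulations smaller differences were mostly missed. Only the lung KO library was changed, the spread between libraries was set (overdispersion 0.002) and not estimated, and adjustment was within a line. Recovery in the real data can therefore differ. At an odds ratio of 4, unchanged CpGs made up 33.3% of the few calls in Dstn, 17.0% in Rgcc, 6.25% in Arap and 2.33% in Ninj1. At 16 their share was 0 to 6.03%. At 2, where calls were few, it was 100% in Dstn, 50% in Arap and 0% in Ninj1, and Rgcc had no calls. Named CpGs are the largest and smallest differences of each island, up to 4 further called by size, up to 2 called in the lung-by-genotype term, and the highest and lowest LacZ CpG of each library; others named were chosen after their values were seen. Promoter sequences are from RefSeq. No files were identical. The libraries, tests and named CpG rule were chosen with earlier results of these data known.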

Additional observations from a re-analysis of the deposited data

Results flagged for a closer look

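Of 37 sets of 4 to 6 values (the tissues of a line, or the 4 lines in lung) examined for a single value far from the rest, 3 had one, where chance alone gives about 1 in 20. The Dstn island difference in lung, 0.601 points, stood above those of the other 5 tissues. The Dstn LacZ level of lung in stretch 5, 32.1%, stood below those of the other 5 tissues. The WT Arap island of liver, 3.08%, stood above those of the other 4 tissues, lung included.

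The KO minus WT difference of lung differed from that of the line's other tissues, by the edgeR lung-by-genotype term at an adjusted p of 0.0473, at 5 CpGs. Lung exceeded the mean of the other tissues by 5.34 points at Dstn 143741075, 1.65 points at Dstn 143740989, 1.53 points at Dstn 143740982, 1.26 points at Dstn 143741007 and 3.32 points at Rgcc 79700999.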

How the results depend on the processing

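The mean island difference over lines kept its positive sign under every alternative run, and the LacZ lung against other tissues mean its negative sign, with leave-one-out means of 0.319 to 0.760 points and −11.8 to −0.186 points. The first minus the last part of LacZ stayed positive (2.45 to 7.49 points with a line left out), but fell to 1.05 points, positive in 1 of 4 lines, without a coverage minimum. Lung minus other tissues for the island difference, −0.188 points, turned positive with pooled reads (0.300), on the log2 odds scale (0.0888, positive in 4 of 4 lines, exact p = 0.13) and without Rgcc (0.0487), and leaving out lines gave −0.395 to 0.0487.

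By line, the Dstn difference moved to 0.0700 points with the median CpG and 0.332 points without CpGs averaging at least 5%. That of Ninj1 moved to −0.375 points without a coverage minimum and 0.579 points without such CpGs, and that of Rgcc to 2.08 points with pooled reads. The Rgcc LacZ level moved to 4.35% with the median and 4.90% without near-constant CpGs.

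Of the CpG counts, the 35 called in the lung contrast became 1 with limma, 20 with at least 100 reads, 10 when a difference of 5 points was also asked, and 9 to 39 with a tissue left out (9 without muscle and 12 without heart, since Rgcc then dropped out). The 10 of Dstn became 0 with limma and 2 at 5 points, the 24 of Rgcc 0 with limma, 10 at 100 reads and 7 at 5 points, and Arap gained 1 without liver. The 5 of the lung-by-genotype term became 0 with limma, 0 at 100 reads, 0 without a coverage minimum, 8 with adjustment within islands, 1 at 5 points and 0 to 9 with a tissue left out; its 4 Dstn CpGs became 0, 0, 0, 8, 1 and 0 to 9 under the same settings, and its 1 Rgcc CpG became 0 under all of the first 5. The Dstn LacZ count, an analysis added after seeing the data, went to 9 with limma, 4 at 100 reads and 0 to 96 with a tissue left out. LacZ over lines stayed at 0 called, with 21 at an unadjusted p under 0.05 without Arap. Of the named CpGs, 10 called by edgeR were not called by limma. The cause was not tested. The parts of LacZ over CpGs covered in each library alone were not tested over lines.

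KO and WT were paired by line and tissue throughout. Depth limits the upstream Rgcc CpGs, down to 84 reads, the Ninj1 CpGs not covered in every library, and LacZ stretch 4.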
